A study of Drosophila melanogaster with 39 samples.

Results

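The ecdysone response genes are *EcR*, *usp*, *br*, *Eip74EF*, *Eip75B* and *Eip71CD*, 6 of 18358 annotated genes. A peak was assigned to a gene when it overlapped the span of that gene in the dm6 annotation, extended by 1 kb to either side. *Eip71CD* carries the symbol *MsrA* in the current annotation and was matched through its synonym. Peaks of the libraries of a ChIP that overlapped by at least 1 bp were merged into regions. Over all 30 lists the 6 genes held 110 regions, of which 26 of 9456 came from CP190, 66 of 6561 from Cul4 with the rabbit antibody, 11 of 4408 from Su(Hw) and 7 of 1004 from Cul4 with the mouse antibody.

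The steroid hormone 20-hydroxyecdysone drives molting and metamorphosis in flies. It binds a heterodimer of *EcR*, the ecdysone receptor, and *usp*, Ultraspiracle, the fly ortholog of the retinoid X receptor. The liganded receptor induces early genes, among them *br*, *Eip74EF* and *Eip75B*, which encode transcription factors that pass the response on to late genes. *EcR* and the early genes are long, with several alternative promoters, and Kc cells are a classical model of the hormone response in culture.

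ChIP-seq peak lists were analysed from Kc167 cells, a cultured line that the labels describe as embryonic hemocytes. Cells received dsRNA against *eff*, which encodes the E2 ubiquitin-conjugating enzyme Effete, dsRNA against *cul4*, which encodes the scaffold of an E3 ubiquitin ligase, or a control dsRNA (mcherry), for 4 days. CP190, Su(Hw) and rabbit Cul4 were profiled in *eff* knockdown, *cul4* knockdown and control cells, and mouse Cul4 in control cells only, with 3 biological replicates in each of the 10 groups. CP190 is a cofactor shared by insulator complexes, and Su(Hw), with its zinc fingers, recruits the *gypsy* insulator to DNA. The labels record no addition of ecdysone. Peak lists carry no expression values, so neither the depletion of *eff* and *cul4* nor the cell type could be checked here.

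The lists held 424 to 9149 peaks and gave no read totals, so the depth of each library is unknown, and a region that was not called is not shown to be unbound. A lower enrichment in bulk chromatin can come from fewer bound cells or from less binding per cell, and these cannot be told apart. The 3 rabbit Cul4 lists of *eff* knockdown cells stood apart from each other. Replicate 1 held 4488 peaks with a median fold enrichment of 2.73, replicate 2 held 571 peaks with a median of 3.19, and replicate 3 held 424 peaks with a median of 7.59. The rabbit Cul4 lists of *cul4* knockdown cells held 2378 to 3431 peaks and those of control cells 4447 to 5355 peaks.

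In control cells, rabbit Cul4 was called at many of the alternative promoters of these genes, CP190 at fewer, mouse Cul4 at 1 and Su(Hw) at none. A site is a region called in all 3 control libraries, and start sites of a gene within 300 bp of each other were taken as a single promoter, which gave 25 promoters. Rabbit Cul4 had a site within 1 kb of 12 of the 25 promoters (48.0%), against 25.5% of all 22276 annotated promoters. Close promoters can share a site, as the 3 of *Eip71CD* do. Only 8 rabbit Cul4 sites had their summit within 1 kb of a start site of these genes. CP190 had one at 6 promoters (24.0%), against 37.8% of all promoters. Mouse Cul4 had one at 1 promoter, against 3.38%, and Su(Hw) at 0, against 6.35%. The plot of promoters shows that every promoter with a CP190 site, other than those of *usp*, also had a rabbit Cul4 site.

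**Figure D1:**
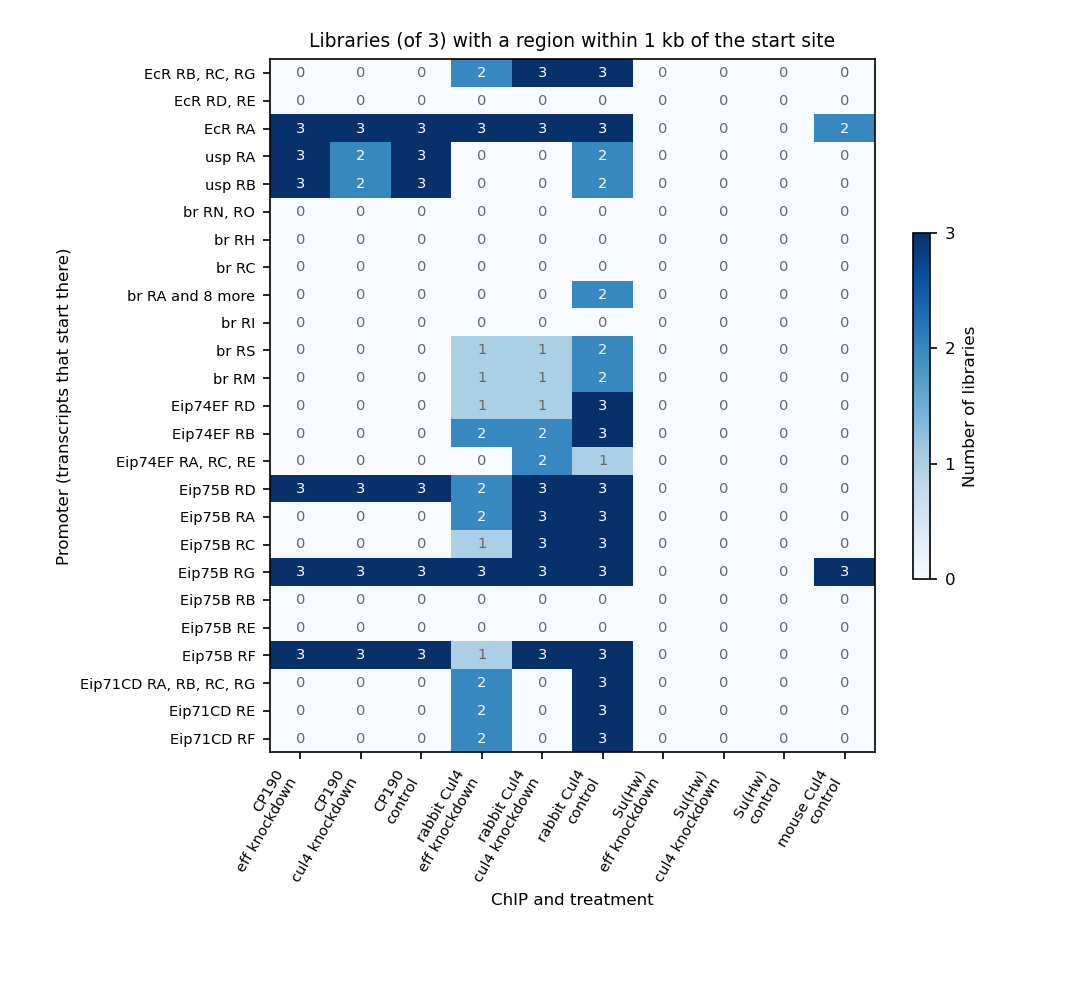
Number of libraries, of 3, with a region within 1 kb of each of the 25 promoters (rows, named by gene and transcript) for each ChIP and treatment (columns). Rabbit Cul4 was called in all 3 control libraries at 12 promoters and CP190 at 6, and no Su(Hw) region lay within 1 kb of any.

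Within the spans the 6 genes held 22 CP190 sites, 29 rabbit Cul4 sites, 10 Su(Hw) sites and 6 mouse Cul4 sites. Per 10 kb this was 0.606 CP190 sites, against 0.531 over the major chromosome arms, 0.799 rabbit Cul4 sites, against 0.275, and 0.275 Su(Hw) sites, against 0.276. Rabbit Cul4 sites were thus denser in these genes than along the arms, and Su(Hw) sites were not. Several of the rabbit Cul4 sites within *EcR* were weak, with mean control percentiles of 0.837 to 11.9, and overlapped no CP190 region. Many rabbit Cul4 sites lacked CP190. Of the 29 rabbit Cul4 sites 11 (37.9%) overlapped a CP190 site, against 68.3% of all rabbit Cul4 sites, while 11 of the 22 CP190 sites overlapped rabbit Cul4, against 34.5% of all CP190 sites. All 6 mouse Cul4 sites overlapped CP190, against 96.6% of all mouse Cul4 sites, and 5 of them overlapped rabbit Cul4, against 50.8%. CP190 shared 7 of the 10 Su(Hw) sites (70.0%), against 75.5% of them genome-wide. The median distance from the summit to the nearest start site of the same gene was 12340 bp for CP190, 5761 bp for rabbit Cul4 and 12360 bp for Su(Hw). These shares describe the control lists, and no test was made of them.

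**Figure D2:**
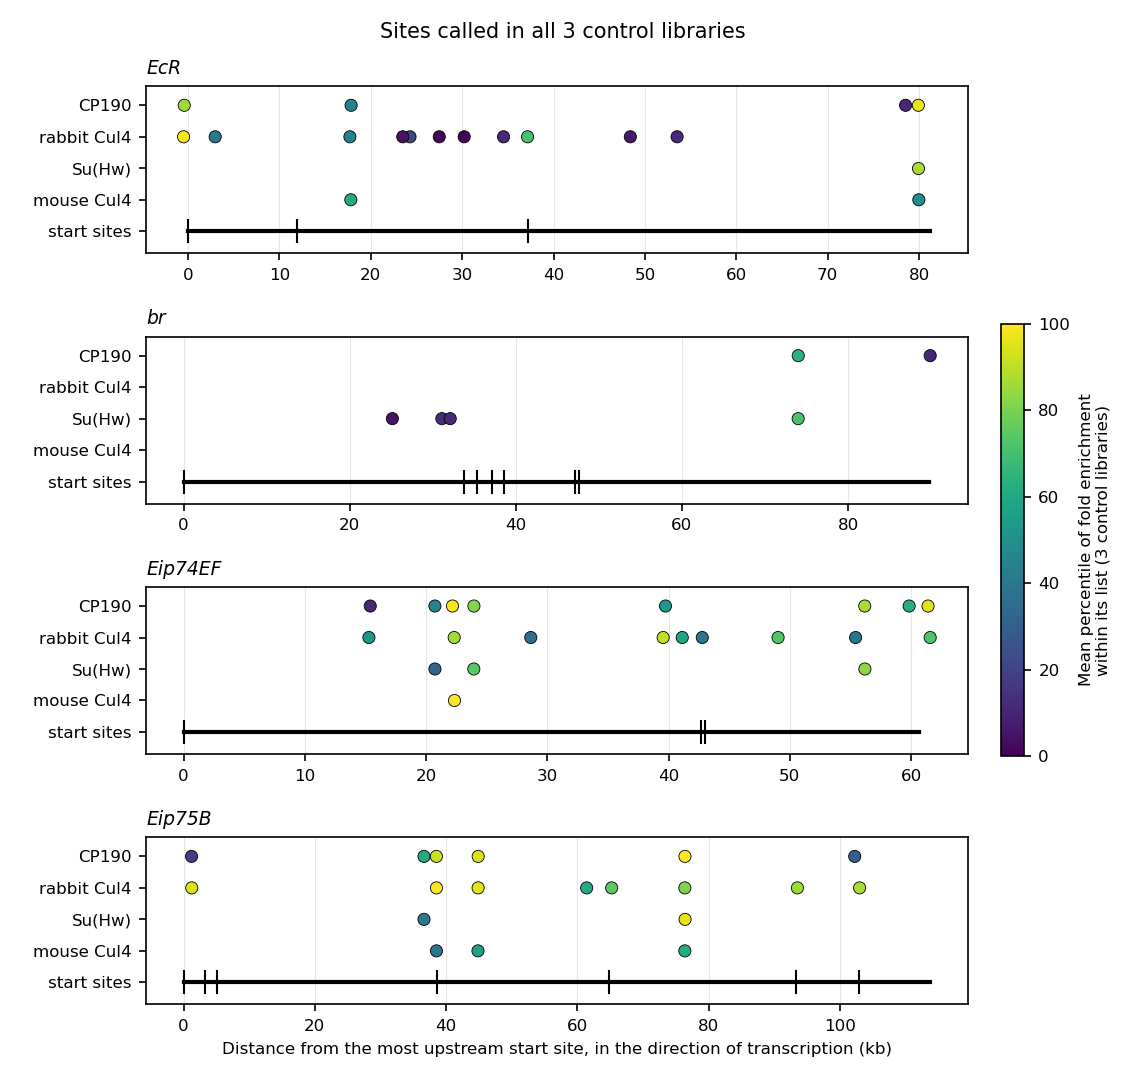
Position of each control site along *EcR*, *br*, *Eip74EF* and *Eip75B* in kb from the most upstream start site (black ticks mark the start sites), colored by the mean percentile of its fold enrichment within the list. *EcR* and *Eip75B* carry their strongest rabbit Cul4 site next to a start site, whereas the Su(Hw) sites lie inside the genes.

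The comparison of knockdown with control cells asks whether loss of Eff or Cul4 changes where these proteins are called. A region was lost when it was called in all 3 control libraries and in no knockdown library. After *cul4* knockdown 6 of the 29 rabbit Cul4 sites (20.7%) were lost, against 20.3% of all rabbit Cul4 sites, which is near the background. They lay in *EcR* (2), *Eip75B* (2), *Eip74EF* (1) and *Eip71CD* (1). After *eff* knockdown 0 of 29 were lost, against 29.2% of all sites. That count rested on replicate 1. Without replicate 1, 16 of 29 sites (55.2%) were lost, against 82.4% of all sites, and with replicate 1 as the only *eff* knockdown library 0 of 29 were lost, against 29.3%. Calls in all 6 libraries were kept at 2 of 29 sites after *eff* knockdown, against 5.23% of all sites, and at 19 of 29 (65.5%) after *cul4* knockdown, against 55.1%.

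Few CP190 and Su(Hw) sites were lost, though some were no longer called in every knockdown library. CP190 was called in all 6 libraries at 19 of 22 sites after *eff* knockdown, against 6853 of all 7114 sites. After *cul4* knockdown it was 17 of 22, against 5929 of 7114. Su(Hw) was called in all 6 at 9 of 10 sites after *eff* knockdown, against 3414 of all 3718 sites. After *cul4* knockdown it was 6 of 10, against 2963 of 3718. CP190 lost 0 of 22 sites after *eff* knockdown, against 1.08% of all CP190 sites, and 1 of 22 after *cul4* knockdown, in *EcR*, against 2.0%. Su(Hw) lost 0 of 10 sites after *eff* knockdown, against 1.45% of all Su(Hw) sites, and 1 of 10 after *cul4* knockdown, in *br*, against 7.96%. No region was gained, that is, called in all 3 knockdown libraries and no control library. Of the rabbit Cul4 regions called in some knockdown library but in no control library, 0 of 17 were gained after *eff* knockdown, against 0.0% of all such regions, and 0 of 2 after *cul4* knockdown, against 7.02%. CP190 and Su(Hw) had no such region in these genes.

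The number of regions called per library was lower in several knockdown groups, but no such difference passed a test. For CP190 it averaged 20.7 ± 0.58 in *eff* knockdown, 19.3 ± 1.5 in *cul4* knockdown and 24.3 ± 2.1 in control libraries (SD, n = 3 each; two-sided exact permutation test, p = 0.1 for either knockdown). A comparison of 3 against 3 libraries cannot give a p below 0.1. For Su(Hw) it averaged 10.0 ± 1.0 in *eff* knockdown, 7.67 ± 1.5 in *cul4* knockdown and 10.3 ± 0.58 in control libraries (exact permutation p = 1.0 for *eff* and 0.1 for *cul4*). For rabbit Cul4 the numbers were 59, 11 and 4 in *eff* knockdown libraries, 26, 23 and 33 in *cul4* knockdown libraries and 35, 48 and 32 in control libraries (exact permutation p = 0.5 for *eff* and 0.2 for *cul4*). Replicate 1 of *eff* knockdown was thus above every control library, and the other 2 were below. It alone called 16 of the 66 rabbit Cul4 regions of these genes (24.2%), against 14.0% of all rabbit Cul4 regions. Whole lists also shortened, from 7124 to 9087 CP190 regions in control libraries to 6179 to 8305 after *cul4* knockdown. For Su(Hw) they went from 3788 to 4085 regions to 3052 to 3435. These genes held 0.275% to 0.309% of CP190 regions in control, 0.247% to 0.281% in *eff* knockdown and 0.253% to 0.291% in *cul4* knockdown libraries. For Su(Hw) the shares were 0.246% to 0.269%, 0.253% to 0.268% and 0.197% to 0.262%.

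The strength of regions called in all 6 libraries of a comparison was compared as the log2 fold enrichment over local background, each library centered on its median, with limma across all such regions and a Benjamini-Hochberg threshold of 0.05. For CP190 the shares of these regions that were lower were near those of all regions tested. For Su(Hw) they were above them, with only 9 and 6 regions tested. For Su(Hw), 4 of 9 tested regions were lower and 1 higher after *eff* knockdown, against 14.8% lower and 15.4% higher of all 3414 regions tested. Without centering 1 of these 9 was lower and 2 were higher, against 1.17% lower and 11.0% higher of all. After *cul4* knockdown 2 of 6 were lower and 0 higher, against 14.3% lower and 14.3% higher of 2963. For CP190, 4 of 19 were lower and 1 higher after *eff* knockdown, against 16.7% lower and 14.0% higher of 6853, and 1 of 17 was lower and 0 higher after *cul4* knockdown, against 9.56% lower and 8.33% higher of 5929. For rabbit Cul4, 2 of 19 were lower and 2 higher after *cul4* knockdown, against 14.9% lower and 10.2% higher of 2033. After *eff* knockdown both tested regions were lower, against 23.8% lower and 27.5% higher of 193. Both kept their direction under every alternative run, but leaving out a library changed which regions could be tested. Without *eff* knockdown replicate 3, 2 of 11 were lower and 4 higher, against 25.7% lower and 25.5% higher of 525. Their median difference was 0.20, against -0.57 over the 2 regions tested with all libraries. Without replicate 2, 2 of 4 were lower and 2 higher, against 34.4% lower and 21.8% higher of 317. On percentiles neither region passed. The median difference over the regions of these genes was -0.32 for Su(Hw) after *eff* knockdown, with -0.05 over all regions, and -0.16 after *cul4* knockdown, with -0.03. For CP190 it was -0.14 after *eff* knockdown, with -0.03 over all regions, and -0.04 after *cul4* knockdown, with -0.01. For rabbit Cul4 it was 0.10 after *cul4* knockdown, with 0.00 over all regions. In all of these comparisons the knockdowns share the same 3 control libraries.

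The split of all calls depended on the scale. With the percentile of the fold enrichment within each list in place of the centered log2 value, 32.3% of all CP190 calls after *cul4* knockdown were higher, against 46.6% on the centered scale, as were 15.3%, against 40.8%, of rabbit Cul4 calls after *cul4* knockdown, while 268 Su(Hw) regions were higher and 875 lower after *cul4* knockdown, against 425 each on the centered scale. Without centering, the share of calls that were higher was 97.1% for CP190 after *cul4* knockdown, and after *eff* knockdown it was 82.3% for CP190, against 45.7% with centering, 90.4% for Su(Hw), against 51.0%, and 0.0% for rabbit Cul4, against 53.5%. For Su(Hw) after *cul4* knockdown it was 65.7%. On percentiles no rabbit Cul4 region was called after *eff* knockdown (0 of 193, and 40 at an unadjusted p under 0.05 in limma).

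**Figure D3:**
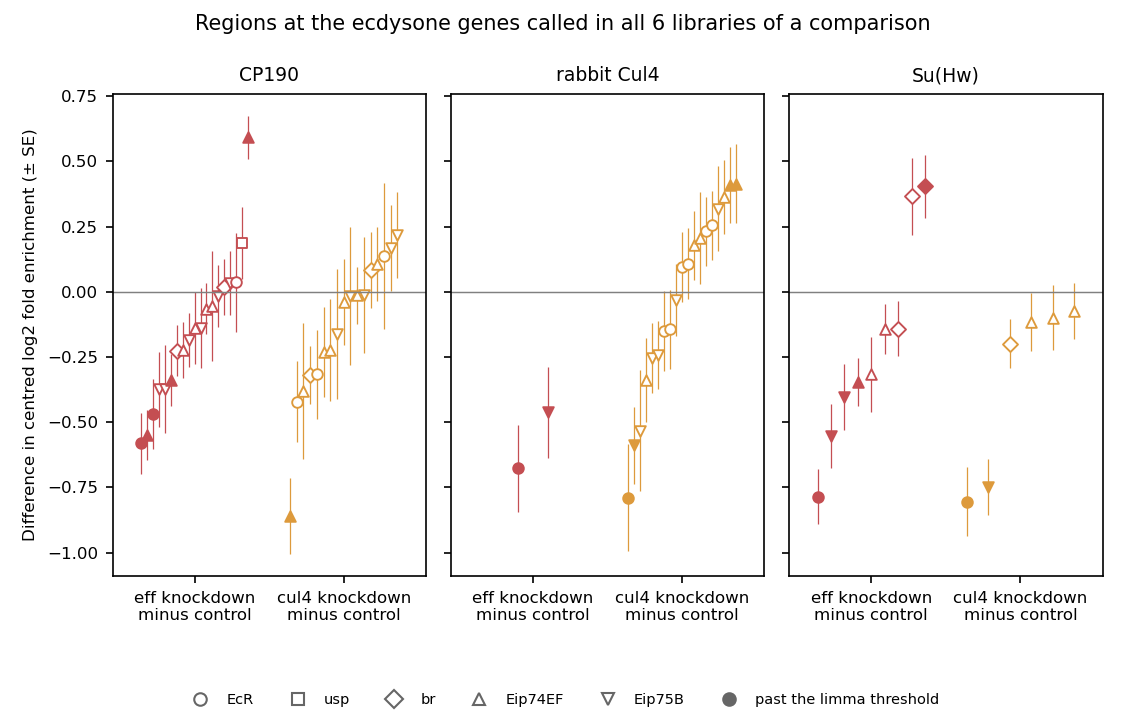
Difference in centered log2 fold enrichment (knockdown minus control, ± SE from limma) for each region of the ecdysone genes called in all 6 libraries, by ChIP and knockdown; filled symbols passed the limma threshold. The lowest Su(Hw) values belong to *EcR* and *Eip75B* in both knockdowns, at -0.79 and -0.55 after *eff* knockdown and at -0.80 and -0.75 after *cul4* knockdown.

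*EcR* lies on chromosome 2R (6087873 to 6169087, minus strand) and has 3 promoters. The most upstream one, of transcript RA, had CP190 and rabbit Cul4 in all 3 libraries of every treatment. The promoter of RB, RC and RG had rabbit Cul4 alone, and that of RD and RE had neither. The rabbit Cul4 region at the RA promoter (2R, 6168307 to 6169927) had its summit at -483 bp from the start site. The start of a tRNA:Arg-ACG gene also lies within 1 kb of this region, so the 2 starts cannot be told apart. The fold enrichment of the region was 4.88, 4.83 and 10.3 in *eff* knockdown, 10.6, 11.7 and 8.06 in *cul4* knockdown and 16.1, 16.2 and 20.1 in control libraries. Every knockdown library was below every control library, and the centered log2 value fell by 0.79 ± 0.21 (SE) after *cul4* knockdown (limma, adjusted p = 0.0066) and by 0.68 ± 0.17 after *eff* knockdown (limma, adjusted p = 0.0050), the second of which was lost on the percentile scale (limma, adjusted p = 0.30). CP190 at the same promoter (6168435 to 6169956) was 10.1, 9.79 and 11.1 in *eff* knockdown and 11.4, 13.1 and 13.9 in control libraries, a fall of 0.47 ± 0.13 (limma, adjusted p = 0.023). Leaving out any of 4 single libraries, controls 2 and 3 and *eff* knockdown replicates 1 and 2, ended that call, with an adjusted p of up to 0.087 in limma.

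At the 3′ end of *EcR*, Su(Hw), CP190 and mouse Cul4 shared a site in an exon, 42651 bp downstream of the nearest start site at the Su(Hw) summit. Su(Hw) there (6088407 to 6089507) had a fold enrichment of 10.1, 8.71 and 6.07 in *eff* knockdown, 6.85, 8.15 and 7.43 in *cul4* knockdown and 13.8, 13.1 and 11.0 in control libraries. Each knockdown group lay wholly below the controls, and the 2 knockdown groups overlapped each other. The percentile within the list was 46.0 ± 7.6 in *eff* knockdown, 40.6 ± 14 in *cul4* knockdown and 86.7 ± 4.5 in control libraries (SD, n = 3 each). The centered log2 value fell by 0.79 ± 0.11 after *eff* knockdown (limma, adjusted p = 0.00078) and by 0.80 ± 0.13 after *cul4* knockdown (limma, adjusted p = 0.0015). Both calls held under all 13 alternatives run. CP190 at this site (6088158 to 6089859) was 13.3, 12.8 and 12.4 in *eff* knockdown, 13.1, 18.0 and 23.4 in *cul4* knockdown and 18.0, 16.7 and 17.0 in control libraries. It fell by 0.58 ± 0.12 after *eff* knockdown (limma, adjusted p = 0.0044), under all 13 alternatives, and did not pass after *cul4* knockdown, where the raw values spread above and below the controls. Mouse Cul4 there was 6.45, 5.73 and 5.29 in control libraries. The strongest mouse Cul4 site of *EcR* lay elsewhere, beside a tRNA:Asn-GTT gene (6150584 to 6151931), at 5.93, 6.29 and 9.78 in control libraries.

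*EcR* lost 3 regions after *cul4* knockdown. The lost CP190 region (6090274 to 6090825, in an exon) was 3.30 in replicate 3 of *eff* knockdown, absent from all *cul4* knockdown lists, and 4.54, 3.30 and 3.59 in control libraries. The 2 lost rabbit Cul4 regions were at 6138562 to 6139308, in an intron, and at 6165926 to 6166330, beside tRNA:Ile-AAT and tRNA:Lys-CTT genes inside *EcR*. The first was 2.74 and 2.59 in *eff* knockdown replicates 1 and 2 and 2.33, 2.14 and 2.33 in control libraries, and the second was 2.44 in *eff* knockdown replicate 1 and 3.20, 3.93 and 3.65 in control libraries. Both were absent from the *cul4* knockdown lists. All 3 control values of the first region stood at the percentiles 0.291 to 1.53 of their lists, and those of the second at 28.3 to 58.9.

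*usp* (X, 2038798 to 2042311, minus strand) encodes the partner of EcR and had the weakest CP190 binding of the 5 genes that CP190 occupied. Its 2 CP190 sites lie at the RA and RB start sites, which are shared with the divergent genes *Actn* and *CG4313*. The stronger region in most libraries (2041281 to 2041947) was 4.88, 4.41 and 4.78 in *eff* knockdown, 4.95 and 4.55 with no call in replicate 3 of *cul4* knockdown, and 4.78, 2.61 and 4.01 in control libraries. The other (2042175 to 2042595), which had the higher mean percentile in control libraries, was 3.45 and 3.13 with no call in replicate 2 of *eff* knockdown, 3.04 in replicate 1 of *cul4* knockdown alone, and 3.78, 4.33 and 3.57 in control libraries. The strongest CP190 region stood at the percentile 17.8 ± 3.3 in *eff* knockdown, 10.3 ± 12 in *cul4* knockdown, counting the library with no call as 0, and 18.9 ± 3.8 in control libraries (SD, n = 3 each), which overlap. Rabbit Cul4 was called at *usp* in control replicates 2 and 3 only, and Su(Hw) and mouse Cul4 in no library.

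*br* (X, 1575132 to 1664869, plus strand) encodes the Broad zinc finger proteins and starts from 7 promoters, none of which had a site of any factor within 1 kb in all 3 control libraries. Rabbit Cul4 was called in 2 control libraries at the promoter used by 9 transcripts and at those of RS and RM. Su(Hw) had 4 sites in *br*, all inside the annotated span of *Mur2B*, which covers *br* on the opposite strand. The site nearest to a start site (1606973 to 1607457, -1634 bp from the RH start site) is shown because it was the only Su(Hw) region of these genes called higher on the centered scale. Its window of 201 bases around the summit, given on the plus strand of dm6, holds the Su(Hw) core letters GCATACTT, printed in capitals.
chrX:1607135-1607335: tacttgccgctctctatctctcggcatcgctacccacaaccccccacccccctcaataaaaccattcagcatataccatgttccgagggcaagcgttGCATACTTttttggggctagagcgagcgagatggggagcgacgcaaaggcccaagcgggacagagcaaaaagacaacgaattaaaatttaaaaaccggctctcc
The fold enrichment there was 6.94, 6.66 and 5.17 in *eff* knockdown, 4.60 and 4.57 with no call in replicate 2 of *cul4* knockdown, and 4.91, 3.97 and 3.82 in control libraries. All 3 *eff* knockdown libraries were above all control libraries, and the centered value rose by 0.40 ± 0.12 (limma, adjusted p = 0.024). That call was lost without control replicate 2, control replicate 3 or *eff* knockdown replicate 2, with an adjusted p of up to 0.092 in limma. The neighboring site (1606012 to 1606453) was 6.76, 6.83 and 4.64 in *eff* knockdown, 3.79 in replicate 3 of *cul4* knockdown alone, and 5.13, 4.49 and 3.14 in control libraries.

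The strongest *br* site lay in a 3′ exon. Su(Hw) there (1648871 to 1649414) was 12.8, 10.3 and 7.27 in *eff* knockdown, 9.50, 9.66 and 7.505 in *cul4* knockdown and 10.3, 10.1 and 8.94 in control libraries, and CP190 (1648876 to 1649484) was 8.97, 8.67 and 6.94 in *eff* knockdown, 8.24, 8.69 and 9.30 in *cul4* knockdown and 9.27, 7.51 and 8.87 in control libraries. The groups overlapped for both proteins and neither passed the limma threshold in either comparison. The Su(Hw) region lost after *cul4* knockdown (1600098 to 1600496) was 4.15 and 3.56 in *eff* knockdown replicates 2 and 3 and 3.58, 3.78 and 3.44 in control libraries, at the percentiles 3.81 to 6.42 of the control lists.

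*Eip74EF* (3L, 17558672 to 17619325, minus strand) encodes an ETS-domain transcription factor. Rabbit Cul4 had a site at the RD and RB promoters and none at the most upstream promoter, of RA, RC and RE, where it was called in 2 *cul4* knockdown libraries and 1 control library. CP190 sites lay inside the gene and past its 3′ end, at the *CycT* promoter. Windows of 201 bases on the plus strand of dm6 are shown for the strongest CP190 site, which is also the strongest mouse Cul4 site of the 6 genes, for the strongest Su(Hw) site, and for the strongest intronic rabbit Cul4 site. Capitals mark GATGGCGC, the core of the motif of the insulator protein CTCF, in the first and GCATACTT in the second. The third held none of the motifs searched.
CP190 and mouse Cul4, chr3L:17597048-17597248: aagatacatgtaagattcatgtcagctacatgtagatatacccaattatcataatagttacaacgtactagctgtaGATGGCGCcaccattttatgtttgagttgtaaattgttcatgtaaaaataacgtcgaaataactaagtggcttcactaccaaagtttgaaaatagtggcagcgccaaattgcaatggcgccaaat
Su(Hw), chr3L:17563036-17563236: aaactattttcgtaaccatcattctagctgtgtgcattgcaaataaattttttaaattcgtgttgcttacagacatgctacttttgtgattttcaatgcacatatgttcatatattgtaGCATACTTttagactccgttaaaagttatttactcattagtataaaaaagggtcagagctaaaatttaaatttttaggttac
rabbit Cul4, chr3L:17579673-17579873: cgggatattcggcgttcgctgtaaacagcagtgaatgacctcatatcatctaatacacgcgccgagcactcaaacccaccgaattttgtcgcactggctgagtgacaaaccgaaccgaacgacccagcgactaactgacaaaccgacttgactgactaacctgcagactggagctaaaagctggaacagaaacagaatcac

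At the first of these (17596192 to 17597627) CP190 was 18.0, 19.5 and 25.4 in *eff* knockdown, 11.6, 19.5 and 30.1 in *cul4* knockdown and 18.7, 20.9 and 18.3 in control libraries, with no call in limma in either comparison. Mouse Cul4 there was 19.2, 19.5 and 24.3 in control libraries, at the percentile 99.3 ± 0.13 (SD, n = 3). Rabbit Cul4 at the same place (17596755 to 17597464) was called in 0 of 3 *cul4* knockdown libraries and was 7.89 and 17.8 in replicates 1 and 3 of *eff* knockdown and 4.75, 6.01 and 7.44 in control libraries. It was the strongest of the 6 rabbit Cul4 regions lost after *cul4* knockdown, by mean control percentile (86.0). CP190 stayed called there in all 3 *cul4* knockdown libraries.

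A site upstream of RB moved the other way. CP190 (17578849 to 17580087, summit at -2955 bp from RB, in an intron) was 13.2, 11.9 and 11.5 in *eff* knockdown, 8.45, 8.96 and 10.1 in *cul4* knockdown and 7.78, 6.47 and 7.51 in control libraries. Every *eff* knockdown library exceeded every control library, and the centered value rose by 0.59 ± 0.084 (limma, adjusted p = 0.00098), under all 13 alternatives, while after *cul4* knockdown the centered difference was -0.01 ± 0.11 (limma, adjusted p = 0.94). Rabbit Cul4 at the same site (17579301 to 17580107), the strongest rabbit Cul4 site of the gene, was 4.58 in *eff* knockdown replicate 1 alone, 7.69, 9.65 and 9.33 in *cul4* knockdown and 7.15, 7.003 and 6.003 in control libraries. It rose by 0.41 ± 0.15 after *cul4* knockdown (limma, adjusted p = 0.045), and a second intronic region (17590338 to 17591131) rose by 0.41 ± 0.14 (limma, adjusted p = 0.037), with 4.03, 5.21 and 4.42 in *cul4* knockdown, 3.25 in *eff* knockdown replicate 1 alone and 3.36, 4.04 and 3.01 in control libraries. Neither held on the percentile scale or without centering, and leaving out any of several single libraries ended either call, with an adjusted p in limma of up to 0.26 over the alternatives.

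Several *Eip74EF* regions fell. CP190 over the 3′ end (17559188 to 17559793, in the last exon and upstream of *CycT*) was 6.79, 6.49 and 5.67 in *eff* knockdown, 6.11, 5.64 and 5.72 in *cul4* knockdown and 9.96, 6.81 and 8.29 in control libraries. All 6 knockdown values were below all control values, and the centered value fell by 0.55 ± 0.096 after *eff* knockdown (limma, adjusted p = 0.0022) and by 0.86 ± 0.15 after *cul4* knockdown (limma, adjusted p = 0.0085). Both calls were lost without centering (limma, adjusted p = 0.088 for *eff* and 0.063 for *cul4*). CP190 at 17598163 to 17598895 was 5.89, 5.93 and 5.30 in *eff* knockdown, 7.28, 7.77 and 6.12 in *cul4* knockdown and 6.81, 5.27 and 7.47 in control libraries, which overlap. It fell by 0.34 ± 0.099 after *eff* knockdown (limma, adjusted p = 0.025), a call lost under 5 of 13 alternatives, with an adjusted p of up to 0.53. Su(Hw) at 17562883 to 17563554 was 11.7, 10.6 and 8.52 in *eff* knockdown, 13.1, 13.3 and 7.93 in *cul4* knockdown and 12.2, 12.2 and 10.5 in control libraries. It fell by 0.35 ± 0.092 after *eff* knockdown (limma, adjusted p = 0.015), which was lost without centering (limma, adjusted p = 0.70) and without control replicate 3.

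*Eip75B* (3L, 17950953 to 18064696, minus strand) encodes nuclear receptors of the E75 group, which in flies bind heme. It has 7 promoters, of which RD, RG and RF had both CP190 and rabbit Cul4, RA and RC rabbit Cul4 alone, and RB and RE neither. Windows of 201 bases on the plus strand of dm6 are shown for the site at -144 bp from RG, the only promoter with CP190 and both Cul4 antibodies in all control libraries, and for 2 intronic sites at which CP190 and both Cul4 antibodies were called far from a start site. In the intronic windows capitals mark the Su(Hw) core GCATACTT, read on the minus strand in the last window, and the CTCF core GATGGCGC. The RG window held none of the motifs searched.
RG promoter, chr3L:18026076-18026276: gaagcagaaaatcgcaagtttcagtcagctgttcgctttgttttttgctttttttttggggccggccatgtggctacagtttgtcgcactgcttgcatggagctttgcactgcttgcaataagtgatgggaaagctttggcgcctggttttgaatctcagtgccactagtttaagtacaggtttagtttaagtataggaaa
intron with Su(Hw), chr3L:17988191-17988391: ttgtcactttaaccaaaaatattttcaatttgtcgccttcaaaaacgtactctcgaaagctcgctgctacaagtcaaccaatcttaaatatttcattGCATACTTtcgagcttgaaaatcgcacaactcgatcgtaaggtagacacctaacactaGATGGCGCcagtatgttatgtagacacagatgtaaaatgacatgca
intron without a Su(Hw) call, chr3L:18019726-18019926: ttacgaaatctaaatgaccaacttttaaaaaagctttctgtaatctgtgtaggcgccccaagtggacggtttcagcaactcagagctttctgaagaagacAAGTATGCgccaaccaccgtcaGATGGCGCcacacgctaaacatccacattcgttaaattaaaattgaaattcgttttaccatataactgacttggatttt

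At the RG promoter, rabbit Cul4 (18025807 to 18026469) was 6.71, 8.27 and 9.93 in *eff* knockdown, 11.5, 17.1 and 12.5 in *cul4* knockdown and 18.7, 17.2 and 23.7 in control libraries. All knockdown values were below all control values. It was the strongest rabbit Cul4 site of the gene in control libraries, at the percentile 99.0 ± 0.36, and stood at 86.8 ± 16 in *eff* knockdown and 97.8 ± 0.69 in *cul4* knockdown (SD, n = 3 each). The centered value fell by 0.46 ± 0.18 after *eff* knockdown (limma, adjusted p = 0.040), a call lost under 6 of 13 alternatives with an adjusted p of up to 0.24, and did not pass the limma threshold after *cul4* knockdown. CP190 there (18025789 to 18026614) was 14.3, 16.3 and 15.0 in *eff* knockdown, 12.6, 19.5 and 27.6 in *cul4* knockdown and 14.1, 16.3 and 14.5 in control libraries, with no call in limma.

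The intronic site with Su(Hw) lies 11530 bp downstream of the RC start site and was the strongest CP190 and the strongest Su(Hw) site of the gene. Su(Hw) (17988011 to 17988571) was 16.1, 11.7 and 9.28 in *eff* knockdown, 11.6, 11.0 and 7.46 in *cul4* knockdown and 16.2, 16.4 and 15.2 in control libraries. The *cul4* knockdown values were all below the controls, and replicate 1 of *eff* knockdown was above the lowest control. The centered value fell by 0.55 ± 0.12 after *eff* knockdown (limma, adjusted p = 0.0058) and by 0.75 ± 0.11 after *cul4* knockdown (limma, adjusted p = 0.00079). Both were lost without centering, with an adjusted p in limma of 0.33 after *eff* and 0.066 after *cul4* knockdown. CP190 at this site (17987838 to 17988859) was 16.2, 18.4 and 16.1 in *eff* knockdown, 14.1, 23.8 and 33.1 in *cul4* knockdown and 19.1, 21.0 and 18.6 in control libraries and passed the threshold in neither comparison. Rabbit Cul4 (17988142 to 17988528) was lost after *cul4* knockdown, with 3.28 in *eff* knockdown replicate 1 alone and 4.55, 5.50 and 5.73 in control libraries. Mouse Cul4 was 7.47, 6.999 and 7.65 in control libraries.

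At the other intronic site, 6206 bp downstream of RG, rabbit Cul4 (18019611 to 18020049) was 2.96 in *eff* knockdown replicate 1 alone, 5.36, 6.56 and 6.86 in *cul4* knockdown and 9.35, 9.98 and 9.02 in control libraries. It fell by 0.59 ± 0.15 after *cul4* knockdown (limma, adjusted p = 0.0046), under all 13 alternatives. Rabbit Cul4 was also lost after *cul4* knockdown at 18003088 to 18003484, at -3465 bp from RC, where it was 2.55 in *eff* knockdown replicate 1 and 3.78, 4.22 and 4.55 in control libraries. Su(Hw) at 18027764 to 18028378, at -2037 bp from RG, was 5.50, 6.05 and 5.41 in *eff* knockdown, 6.18 and 3.401 with no call in replicate 2 of *cul4* knockdown, and 6.92, 6.86 and 6.34 in control libraries. It fell by 0.40 ± 0.13 after *eff* knockdown (limma, adjusted p = 0.029), which was lost under 5 of 13 alternatives, with an adjusted p of up to 0.47.

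*Eip71CD* (3L, 15511052 to 15513202, plus strand) was named for its induction by ecdysone and encodes methionine sulfoxide reductase A, which repairs oxidized methionine. It had a single region, of rabbit Cul4, over its start (15510852 to 15511330, summit 39 bp downstream of the first start site), and no CP190, Su(Hw) or mouse Cul4 region in any library. The region was 3.395 and 2.86 in replicates 1 and 2 of *eff* knockdown, absent from replicate 3 and from all *cul4* knockdown lists, and 5.44, 3.88 and 5.70 in control libraries. In fold enrichment the knockdown libraries were thus either below the controls or without a call. The percentile within the list was 84.2 and 29.25 in *eff* knockdown replicates 1 and 2 and 85.2, 57.4 and 83.4 in control libraries. On that scale replicate 1 of *eff* knockdown lay within the range of the controls. The 3 promoters of the gene lie within 1 kb of this region and share it.

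By gene, the control levels of the strongest region put *Eip75B*, *Eip74EF* and *EcR* first for CP190, at the percentiles 99.7 ± 0.22, 99.1 ± 0.22 and 96.3 ± 1.9, followed by *br* at 64.3 ± 4.9, *usp* at 18.9 ± 3.8 and *Eip71CD* at 0 (SD, n = 3 each). For rabbit Cul4 the order was *Eip75B* (99.0 ± 0.36), *EcR* (98.5 ± 0.48), *Eip74EF* (92.6 ± 0.23), *Eip71CD* (75.3 ± 16), *br* (29.1 ± 25) and *usp* (21.8 ± 26), of which *Eip75B* and *EcR*, and *br* and *usp*, overlapped. For Su(Hw) it was *Eip75B* (96.4 ± 0.59), *EcR* (86.7 ± 4.5), *Eip74EF* (82.9 ± 3.3) and *br* (71.2 ± 3.2), of which *EcR* and *Eip74EF* overlapped, and *usp* and *Eip71CD* had no call.

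**Figure D4:**
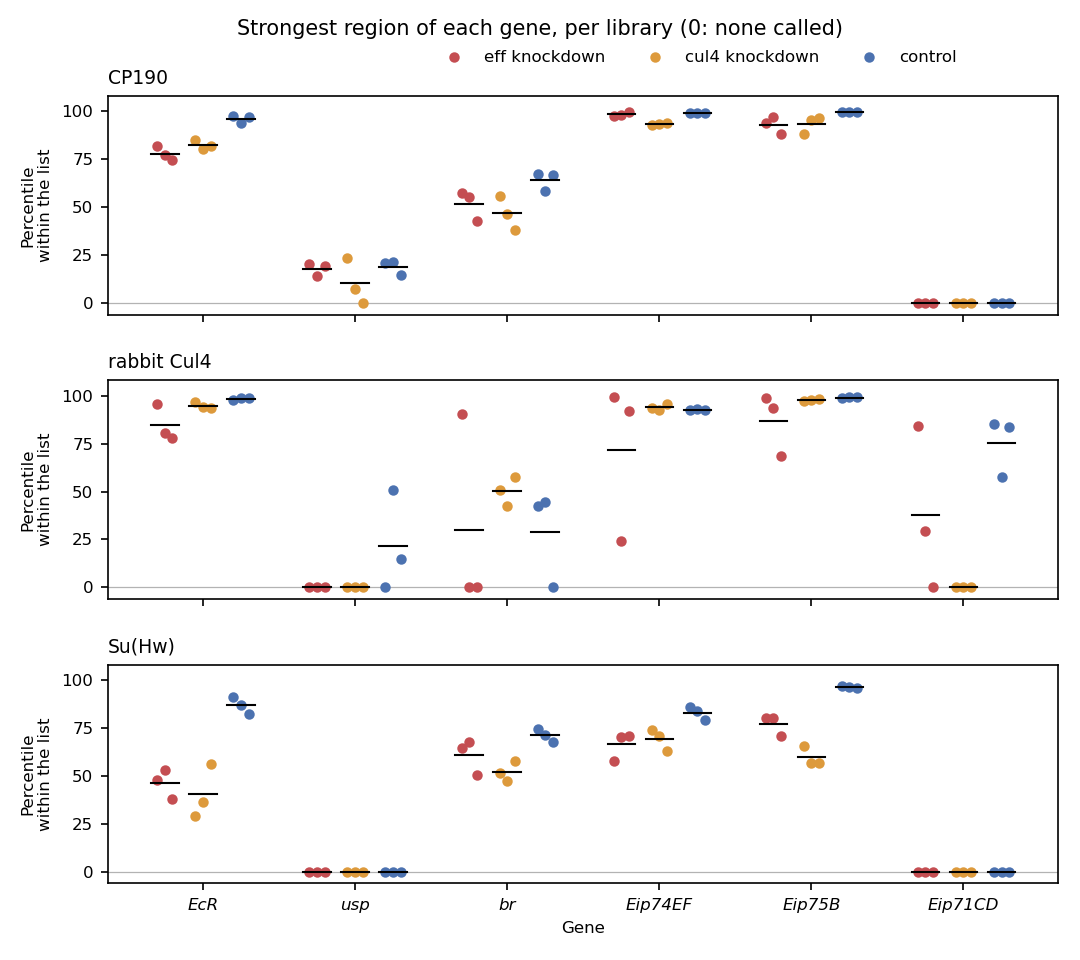
Percentile within the list of the strongest region of each gene in each library (points; bars are means of 3 libraries; 0 where none was called), for *eff* knockdown, *cul4* knockdown and control cells. Su(Hw) at *EcR* stands at 37.8 to 52.8 after *eff* knockdown, 29.2 to 56.4 after *cul4* knockdown and 82.1 to 91.0 in control cells.

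The genes with the most similar profile were found by Euclidean distance over the 10 group means of the percentile of the strongest region. They were *ome*, *SNF4Agamma* and *Sh* for *EcR* (distances 35.9, 36.1 and 37.6 percentile points), *CG5961*, *Polr3C* and *CG30008* for *usp* (3.0, 3.0 and 4.26), *imd*, *Dp1* and *Cdc7* for *br* (37.4, 37.9 and 39.9), *CG11600*, *CG11608* and *Hr4* for *Eip74EF* (26.5, 26.5 and 27.5), *bves*, *Antp* and *CG46458* for *Eip75B* (16.5, 25.8 and 25.8), and *CHES-1-like*, *CG42346* and *E23* for *Eip71CD* (10.8, 11.6 and 12.1). Genes at equal distance lie side by side or overlap in the annotation.

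The windows of 201 bases around the control summits were searched on both strands for GCATACTT (Su(Hw)), GATGGCGC (CTCF), GTGTGACC (M1BP), TATCGATA (shared by BEAF-32 and DREF) and TCANTGA, the center of the palindrome that EcR and Usp bind. The letters GAGAGAG, of the GAGA factor, were searched in the same way and were in 1 of 29 rabbit Cul4 windows, of *Eip74EF*, against 6.21% of all rabbit Cul4 windows. The CTCF letters were added after the printed windows had been seen. The Su(Hw) core was in 9 of 10 Su(Hw) windows of these genes, against 44.5% of all 3700 Su(Hw) windows and 0.557% of all promoter windows, and the exception was *EcR*. It was in 7 of 22 CP190 windows, against 18.6% of all. The CTCF core was in 4 of 6 mouse Cul4 windows, in *EcR*, *Eip74EF* and *Eip75B*, against 11.3% of all 767 mouse Cul4 windows and 0.557% of promoter windows, and in 3 of 29 rabbit Cul4 windows, against 1.68% of all. Both counts include sites whose printed windows had shown these letters, so neither is a separate test of the motif. The EcR and Usp letters were in 3 of 29 rabbit Cul4 windows, of *EcR* and *Eip75B*, against 3.58% of all rabbit Cul4 windows and 4.32% of promoter windows. M1BP letters were in 0 of 29, against 8.47% of all rabbit Cul4 windows. A match is a description of these letters only.

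Other genes of the pathway were taken from a list of 40, of which 38 were matched in the annotation. CP190 had a site at 21 of the 38, rabbit Cul4 at 17, Su(Hw) at 12 and mouse Cul4 at 5. Of all 18358 annotated genes, 49.0% had a site of CP190, 30.2% of rabbit Cul4, 14.0% of Su(Hw) and 6.06% of mouse Cul4. On the list 11 genes had none of CP190, rabbit Cul4 and Su(Hw). All 4 receptor cofactors (*tai*, *Smr*, *rig* and *trr*) had CP190. Of 13 downstream nuclear receptors and transcription factors 9 had CP190 and 9 rabbit Cul4, of 15 other ecdysone-induced genes 6 and 5, and of 6 genes of ecdysone synthesis and turnover 2 and 0. Sites of all 3 proteins were present at *Smr*, *Eip78C*, *Hr4*, *Hnf4* and *Eip63E*. After *eff* knockdown 8 of 35 rabbit Cul4 sites of the list were lost, against 29.2% of all rabbit Cul4 sites, at *tai*, *Smr*, *rig*, *Hr78*, *vri* (2), *Kr-h1* and *Eip63E*, and after *cul4* knockdown 7 of 35, against 20.3%, at *Smr*, *vri*, *Kr-h1*, *Eip55E* (2), *Eip63E* and *E23*. CP190 lost 1 of 44 sites in either comparison, at *Eip63E* after *eff* knockdown, against 1.08% of all sites, and at *tai* after *cul4* knockdown, against 2.0%. Su(Hw) lost 0 of 26 after *eff* knockdown, against 1.45%, and 2 of 26 after *cul4* knockdown, at *Smr* and *Hr4*, against 7.96%. None was gained.

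In limma, CP190 regions of the list rose at 7 and fell at 8 of 40 after *eff* knockdown, against 14.0% higher and 16.7% lower of all regions, and rose at 4 and fell at 3 of 34 after *cul4* knockdown, against 8.33% and 9.56%. Su(Hw) regions rose at 4 and fell at 5 of 25 after *eff* knockdown, against 15.4% higher and 14.8% lower of all regions, and rose at 2 and fell at 5 of 22 after *cul4* knockdown, against 14.3% for each direction. Rabbit Cul4 regions rose at 5 and fell at 2 of 22 after *cul4* knockdown, against 10.2% higher and 14.9% lower of all regions, and none could be tested after *eff* knockdown. In *Hr3*, *ftz-f1* and *Eip63F-1*, CP190 regions of the same gene moved in opposite directions after *eff* knockdown. In *Eip63F-1*, an ecdysone-induced gene for a calcium-binding protein, CP190 at 3L, 3917322 to 3918116 rose by 0.61 ± 0.10 after *eff* knockdown (limma, adjusted p = 0.0017) and by 0.72 ± 0.12 after *cul4* knockdown (limma, adjusted p = 0.0081), while at 3909399 to 3909890 it fell by 0.52 ± 0.11 (limma, adjusted p = 0.0064) and by 0.70 ± 0.13 (limma, adjusted p = 0.011). At *Hr78*, a nuclear receptor gene, CP190 fell by 0.84 ± 0.12 after *eff* knockdown (limma, adjusted p = 0.00096) and by 0.84 ± 0.15 after *cul4* knockdown (limma, adjusted p = 0.010), and rabbit Cul4 fell by 0.67 ± 0.13 after *cul4* knockdown (limma, adjusted p = 0.00049). At *ImpL2*, which encodes a secreted insulin-binding protein, rabbit Cul4 rose by 0.91 ± 0.14 after *cul4* knockdown (limma, adjusted p = 2.4e-05). At *Eip93F*, a late transcription factor gene, CP190 at 3R, 21987961 to 21988867 rose by 0.46 ± 0.14 after *eff* knockdown (limma, adjusted p = 0.026) and by 0.47 ± 0.12 after *cul4* knockdown (limma, adjusted p = 0.027), and both called Su(Hw) regions rose after *eff* knockdown. Among single called regions, rabbit Cul4 rose at *Hr39*, a nuclear receptor gene, after *cul4* knockdown (0.45 ± 0.13; limma, adjusted p = 0.015). Su(Hw) fell at the cell death gene *hid* after either knockdown, and at *shd*, which encodes the enzyme that makes 20-hydroxyecdysone, after *cul4* knockdown. CP190 and Su(Hw) both fell at *dib*, another gene of ecdysone synthesis, after *eff* knockdown.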

How the data were processed

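Peak lists of 30 ChIP-seq libraries of Kc167 cells were used, in 10 groups of 3, and 9 inputs were not used here. Per the labels and methods, the authors trimmed reads (cutadapt 3.4), aligned them to dm6 (Bowtie2 2.4.2), filtered and deduplicated them (SAMtools 1.12, Picard) and called peaks against input (MACS2 2.2.7.1). The deposited lists give for each peak the fold enrichment (a ratio of pileup to local background), the −log10 p-value, the −log10 q-value, a score derived from −log10 q, and the summit position. Calls depend on depth, which is unknown, and fold enrichment has a scale of its own in each library.

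Regions, sites and calls were defined as in the text, with the Ensembl 115 annotation. Strength was fitted with limma 3.58.1 (R 4.3.3; trend) on log2 fold enrichment, centered per library, over all regions called in all 6 libraries, and tested on simulated data. Numbers of regions were compared with exact permutation tests (SciPy 1.17.1). The replicates are labelled as biological, with no statement on separate cultures, so p-values measure the spread between these samples. The alternatives were a −log10 q of at least 20, an overlap of at least 100 bp, no flank, merging over 6 libraries, other call rules, another promoter definition, percentiles, a replicate block and leaving out each library.

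The members, the pathway list and the tests were chosen with earlier results of these data known. Values in every library are given for lost, gained and limma-called regions and for the strongest control site of each gene and factor, with the 3 most similar genes for each member, and pathway genes are named when they have a lost, gained or called region or sites of all 3 proteins.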

Additional observations from a re-analysis of the deposited data

How the results depend on the processing

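The counts of lost regions here are those of the 6 genes under each setting. Beyond the main rule, shares over all regions are given above only for the runs with and without *eff* knockdown replicate 1. The other counts therefore cannot be read against a background. Lost regions with a difference of at least 2 libraries as the rule numbered 4 for CP190 after *eff* and 5 after *cul4* knockdown, 19 for rabbit Cul4 after *eff* and 12 after *cul4* knockdown, and 2 for Su(Hw) after *cul4* knockdown. At a −log10 q of at least 20 they were 0 for CP190 and 0 for Su(Hw) after *cul4* knockdown and 2 for rabbit Cul4 after *eff* knockdown. Leaving out single libraries, of which control replicate 2 moved the CP190 counts and *eff* knockdown replicate 1 the rabbit Cul4 count the most, gave 0 to 2 for CP190 after *eff* and 1 to 4 after *cul4* knockdown, 0 to 16 for rabbit Cul4 after *eff* knockdown and 1 to 2 for Su(Hw) after *cul4* knockdown. With *eff* knockdown replicate 1 alone, an alternative chosen after seeing the data, 17 rabbit Cul4 regions were called there and in no control library. The difference in the number of Su(Hw) regions after *eff* knockdown was 0.333 at a −log10 q of at least 20 and -0.833 to 0.167 without single libraries, against -0.333. With promoters taken as the start site and 1500 bp upstream, Su(Hw) had a site at 1 promoter, and mouse Cul4 had one at 2 promoters when a call in 2 of 3 control libraries sufficed and at 1 to 2 without single libraries. For strength, percentiles gave 4 of 17 CP190 regions lower after *cul4* knockdown, against 8.62% of all regions. They gave 0 of 19 rabbit Cul4 regions higher after *cul4* knockdown, against 2.46%, and 0 of 2 lower after *eff* knockdown, against 0.0%. A −log10 q of at least 20 gave 0 of 16 CP190 regions lower after *cul4* knockdown, against 9.44% of all regions. It gave 0 of 15 rabbit Cul4 regions higher after *cul4* knockdown, against 10.1%, and 1 of 2 lower after *eff* knockdown, against 25.6%. Without centering, chosen after seeing the data, 0 of 17 CP190 regions were lower and 1 higher after *cul4* knockdown, against 0.742% and 25.1% of all. After *eff* knockdown 2 of 19 CP190 regions were lower, against 4.79%. For rabbit Cul4 0 of 19 were higher after *cul4* knockdown, against 7.08%. For Su(Hw) 1 of 6 was lower after *cul4* knockdown, against 3.88%. After *eff* knockdown 1 of 9 Su(Hw) regions was lower, against 1.17%, and 2 were higher, against 11.0%. Relative to the centered scale, leaving out the centering moved the median difference over all regions by 0.35 for CP190 after *cul4*, 0.16 for CP190 after *eff*, -0.80 for rabbit Cul4 after *eff* and 0.16 for Su(Hw) after *eff* knockdown. Without single libraries the lower regions numbered 1 to 2 for CP190 after *cul4* knockdown, against 0.928% to 17.1% of all regions. After *eff* knockdown they numbered 2 to 5 for CP190, against 8.84% to 17.6%, 1 to 2 for rabbit Cul4, against 18.1% to 34.4%, and 2 to 5 for Su(Hw), against 6.6% to 13.9%. The higher ones numbered 0 to 3 for rabbit Cul4 after *cul4* knockdown, against 5.29% to 10.2%. After *eff* knockdown they numbered 0 to 4 for rabbit Cul4, against 21.8% to 34.2%, and 0 to 2 for Su(Hw), against 8.41% to 13.9%. Same-numbered libraries did not all deviate together (correlations -0.57 to 0.54, the highest for CP190), and not every library correlated best with its own number. Some CP190 libraries did, so whether the numbers pair the libraries is unclear, and the main fit did not pair them. With the replicate block 1 rabbit Cul4 region was higher after *cul4* knockdown, against 2, and over all regions the CP190 calls after *cul4* knockdown were 681 higher and 704 lower, against 494 and 567. All 19 called differences at the 6 genes kept their direction, and 6 of them also kept their call under every alternative run; the alternatives were not run for single regions of the pathway list, and the cause of the lost calls was not tested. Sites near the weakest fold of a list are limited by depth, which is unknown.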
